A study of Mus musculus with 8 samples.

Results

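The promoters described here are those of protein-coding genes that held at least 3 fewer H3K4me3 peaks in the resistant tumor LLC-R than in the sensitive tumor LLC-NR. A promoter reached 1 kb before and 0.5 kb past the transcription start site (TSS) that most transcripts of the gene share, and a peak was counted where its midpoint lay. Of 21418 promoters on chromosomes 1 to 19, 1121 met this rule, which is 5.23%, and 535 showed the opposite change, a gain of 3 or more. The set was chosen by its H3K4me3 counts, so those counts are given as a description and carry no test.

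LLC-NR is Lewis lung carcinoma, a mouse lung tumor line, in its drug sensitive form, and LLC-R is the line obtained from this carcinoma by repeated selection in mice under VEGF-Trap, a decoy receptor that binds VEGF. Both were grown under the skin of the right flank of female C57BL/6J mice without a further treatment being given in the labels, until the isografts reached about 500 mm3, although the labels give the tissue as lung. Chromatin from the tumors was cut with micrococcal nuclease and precipitated with antibodies against H3K4me3, H3K9ac, H3K27me3 and H3K36me3. This gave 8 libraries, 1 per line and mark, with 5678337 H3K4me3 peaks for LLC-NR, 5660458 for LLC-R, and between 6432447 and 9101721 peaks in the libraries of the other marks. LLC-R is 1 selected line, the isografts include cells of the host, and how many tumors went into a library was not stated. With 1 library per line and mark there was no replicate and no test, and a difference between the lines cannot be told apart from a difference between 2 preparations. Read depth differed as well. The paper lists more uniquely mapped reads in LLC-R than in LLC-NR for H3K27me3 and H3K36me3, and fewer for H3K4me3 and H3K9ac. Mean counts over all promoters differed between the lines in the same directions. Apart from the scaling given at the end, the part of read depth was not tested. No input library was used here. The intervals given are exact 95% binomial intervals over promoters, which cover counting error only.

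H3K4me3 is placed on nucleosomes around the start sites of genes that are active or ready to be transcribed, and CpG islands carry it in many tissues whether or not the gene is highly expressed. H3K9ac accompanies H3K4me3 at active starts, H3K27me3 is laid down by Polycomb complexes at silent developmental genes, and H3K36me3 follows elongating RNA polymerase into the gene body. Micrococcal nuclease digests the DNA between nucleosomes, and the peaks of the deposited files were called at the size of single nucleosomes. Whether each of them is a marked nucleosome was not tested. All peaks were 147 bp long, the DNA length wrapped in a nucleosome core, and neighbouring peaks of a library never overlapped.

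Examples of the nucleosome positions concerned are shown so that single lost and kept peaks can be read beside the averages over all peaks given further on. A peak of LLC-NR was called lost if it shared no base with an LLC-R H3K4me3 peak, kept if it shared at least 74 bp with one, and shifted otherwise. The lost and the kept peak nearest to the TSS among those wholly upstream of it are given for genes with the largest fall in H3K4me3, read 5′ to 3′ along the gene from build mm9, with CpG dinucleotides in capitals. The upstream peaks of Hnrnpm and the kept one of Parp2 overlapped annotated exons and are not printed.
Hoxa5 lost peak, chr6:52154803-52154949, minus strand: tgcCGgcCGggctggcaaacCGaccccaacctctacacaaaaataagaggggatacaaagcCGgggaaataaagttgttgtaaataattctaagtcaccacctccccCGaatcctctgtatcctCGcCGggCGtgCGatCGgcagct
Hoxa5 kept peak, chr6:52155219-52155365, minus strand: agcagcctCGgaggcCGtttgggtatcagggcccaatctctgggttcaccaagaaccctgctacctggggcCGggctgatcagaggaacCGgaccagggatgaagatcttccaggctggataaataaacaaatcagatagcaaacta
Copg lost peak, chr6:87837509-87837655, plus strand: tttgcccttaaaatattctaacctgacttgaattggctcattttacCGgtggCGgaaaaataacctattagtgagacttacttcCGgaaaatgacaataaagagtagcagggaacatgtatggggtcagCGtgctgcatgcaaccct
Copg kept peak, chr6:87837136-87837282, plus strand: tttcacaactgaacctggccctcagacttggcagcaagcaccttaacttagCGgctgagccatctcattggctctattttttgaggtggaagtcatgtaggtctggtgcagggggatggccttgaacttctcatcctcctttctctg
Parp2 lost peak, chr14:51426975-51427121, plus strand: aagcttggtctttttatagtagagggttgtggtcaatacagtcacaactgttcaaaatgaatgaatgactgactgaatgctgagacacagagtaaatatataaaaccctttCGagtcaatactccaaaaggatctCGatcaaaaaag
Ano4 lost peak, chr10:88721035-88721181, minus strand: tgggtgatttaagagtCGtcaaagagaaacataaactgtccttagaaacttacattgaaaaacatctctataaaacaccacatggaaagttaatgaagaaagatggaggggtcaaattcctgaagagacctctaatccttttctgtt
Ano4 kept peak, chr10:88720594-88720740, minus strand: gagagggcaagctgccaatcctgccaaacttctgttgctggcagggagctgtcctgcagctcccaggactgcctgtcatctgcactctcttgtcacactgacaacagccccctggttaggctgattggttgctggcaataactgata
Olfr376 lost peak, chr11:73183954-73184100, plus strand: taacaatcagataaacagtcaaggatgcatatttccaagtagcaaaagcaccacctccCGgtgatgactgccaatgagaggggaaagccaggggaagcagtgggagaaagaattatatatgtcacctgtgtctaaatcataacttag
Olfr376 kept peak, chr11:73184391-73184537, plus strand: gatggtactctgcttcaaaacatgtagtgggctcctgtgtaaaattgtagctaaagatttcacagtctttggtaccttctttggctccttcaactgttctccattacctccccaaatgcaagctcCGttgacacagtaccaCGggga

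In Hoxa5, a homeobox transcription factor gene, the lost peak was centred 290 bp upstream of the TSS and held 10 CpG dinucleotides, and the kept one 706 bp upstream held 4. Both lay in an intron of the longer annotated Hoxa3 gene. In LLC-R the position of the lost Hoxa5 peak still held peaks of H3K9ac and H3K27me3. In Copg, which encodes a subunit of the COPI vesicle coat, the lost peak 226 bp upstream held 4 CpG and the kept one 599 bp upstream held 1. The lost peak of Parp2, a DNA repair enzyme gene, lay 573 bp upstream with 2 CpG and a G+C content of 36.1%. In Ano4, an anoctamin membrane protein gene, the lost peak lay 573 bp upstream and the kept one 132 bp upstream, with 1 CpG in the lost and 0 in the kept peak and a G+C content of 35.4% and 55.1%. In Olfr376, an olfactory receptor gene, the lost and kept peaks lay 721 and 284 bp upstream and held 1 and 2 CpG. Of these 4 pairs, the lost peak thus held more CpG in Hoxa5, Copg and Ano4 and fewer in Olfr376. In the pairs not printed in full the lost peak held fewer, 1 against 17 in Hnrnpm and 2 against 11 in Parp2. Copg, Parp2, Ano4 and Olfr376 peaks printed here lay outside annotated exons and protein-coding genes.

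The promoters held 6.46 ± 1.31 H3K4me3 midpoints in LLC-NR (SD over 1121 promoters) and 3.24 ± 1.37 in LLC-R. All 21418 promoters held 4.97 ± 2.02 and 4.67 ± 1.86. A stretch of promoter length taken at the average density of chromosomes 1 to 19 would hold 3.29 midpoints at the LLC-NR density and 3.28 at that of LLC-R. The promoters therefore went from a level above that of promoters in general to about the average level of the chromosomes. Counts in a promoter reached at most 9, so the count measures how many positions were called and not how strongly each was marked.

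The loss was 5 midpoints in 32 promoters (mean 6.59 to 1.59), 4 in 184 (6.68 to 2.68) and 3 in 905 (6.41 to 3.41). Just outside the rule, 2820 promoters lost 2 midpoints, from a mean of 6.11 to 4.11. Most of the set was thus 1 midpoint from not being in it. In LLC-R, 23 of the 1121 promoters held no H3K4me3 midpoint, 115 held 1, 202 held 2, 248 held 3, 318 held 4, 192 held 5 and 23 held 6.

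The share of promoters that lost 3 or more rose with the starting count. It was 0.751% at 3 midpoints in LLC-NR, 5.04% at 5, 8.46% at 7, 18.9% at 8 and 50.8% at 9, where 33 of 65 promoters were concerned (interval 38.1 to 63.4%). A high starting count leaves more room to fall, so every other property was compared with a reference of the 20297 remaining promoters weighted to the same LLC-NR counts. That reference went from 6.46 midpoints to 5.81.

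CpG content was a property of the DNA that the rule did not use. HCPs, promoters with a CpG-rich 500 bp interval, made up 569 of the 1121 (50.8%, interval 47.8 to 53.7%), against 78.0% of the reference and 54.7% of all promoters. ICPs, of intermediate CpG content, were 210 (18.7%, 16.5 to 21.1%, reference 10.7%), and LCPs, the CpG-poor promoters, were 342 (30.5%, 27.8 to 33.3%, reference 11.3%). Compared with promoters that started from the same count, the share of HCPs differed by -27.2 percentage points (interval -30.2 to -24.3) and CpG-poor promoters were more frequent. The promoters held on average 48.2 CpG dinucleotides against 72.9 in the reference and 53.3 in all promoters.

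This difference depended on which level was held equal. Against promoters with the same sum of midpoints over both lines, the share of HCPs differed by only -1.52 percentage points (interval -4.49 to 1.45). Without regard to level, 4.86% of HCPs, 5.76% of ICPs and 5.64% of LCPs were in the set. At 6 midpoints in LLC-NR the shares were 2.14% of HCPs, 10.9% of ICPs and 18.5% of LCPs, and at 7 midpoints they were 6.31%, 19% and 36.3%. LCPs that held 7 midpoints in LLC-NR averaged 4.94 ± 1.26 in LLC-R (SD, 179 promoters), whereas HCPs with 7 averaged 6.05 ± 1.02 (3660 promoters). The reverse also held: LCPs with 7 midpoints in LLC-R averaged 5.59 in LLC-NR and HCPs with 7 averaged 6.65. Gains of 3 or more concerned 4.37% of LCPs and 1.11% of HCPs, without regard to level. At 7 midpoints, counts thus differed more between the libraries in CpG-poor promoters, whichever line was held at 7. At 3 midpoints the order was reversed. HCPs with 3 in LLC-NR averaged 4.21 in LLC-R and LCPs 3.35, and with 3 in LLC-R they averaged 4.63 and 3.41 in LLC-NR.

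**Figure D1:**
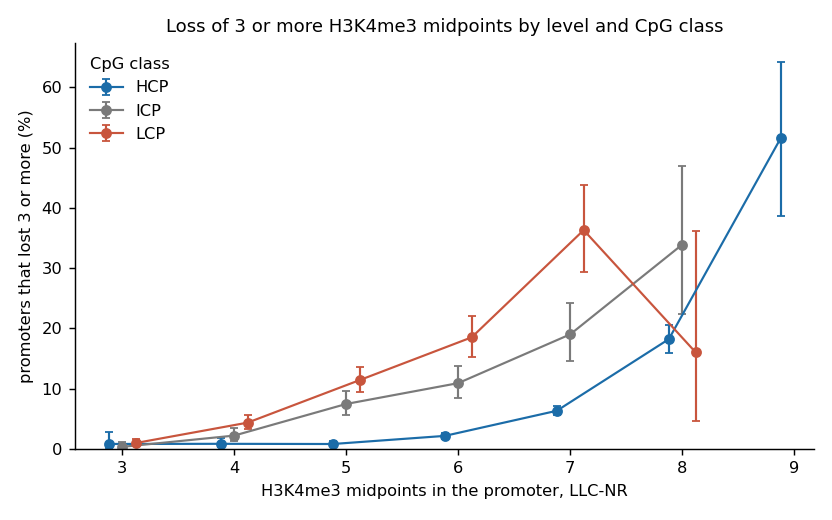
Percentage of promoters that lost 3 or more H3K4me3 midpoints (y axis) by the number of midpoints in LLC-NR (x axis) for HCPs, ICPs and LCPs, with exact 95% intervals. At 6 midpoints the share was 2.14% in HCPs and 18.5% in LCPs, and at 8 midpoints the LCP point rests on 4 of 25 promoters.

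Short motifs were counted from 250 bp upstream to 50 bp downstream of the TSS on both strands. TATAAA, the core of the TATA box that positions the start of transcription in many tissue-specific genes, was present in 180 of the 1121 (16.1%, interval 14.0 to 18.3%). It was present in 13.5% of all promoters, in 8.08% of the reference and in 11.0% of a reference that also had the same CpG class. GGGCGG, the GC box bound by Sp1 family factors, was present in 450 (40.1%, 37.3 to 43.1%), against 43.9% of all promoters, 60.7% of the reference and 46.3% at the same CpG class. CCAAT, bound by NF-Y, was present in 439 (39.2%, 36.3 to 42.1%), against 37.4% of all promoters and 34.9% at the same CpG class. TGACGTCA, the element bound by CREB, was present in 19 (1.69%, 1.02 to 2.63%), against 2.32% of all promoters and 2.67% at the same CpG class. Compared with promoters of the same count and class, TATAAA and CCAAT were thus more frequent and GGGCGG less frequent, and TGACGTCA was less frequent by a margin close to its interval. CACGTG (8.30%), CCGGAAG (11.9%), GCATGCGC (3.75%) and AAGATGG (6.87%) had intervals that included the value at the same CpG class. None of these motifs is a measured binding site, and no motif listed contains another.

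The location of the promoters was described by neighbouring starts and by chromosome. The TSS of another protein-coding gene lay within 1 kb in 107 of the 1121 (9.55%, interval 7.89 to 11.4%), against 18.9% of the reference and 11.6% of all promoters. A single annotated transcript was found for 449 genes (40.1%, 37.2 to 43.0%), against 29.5% in the reference and 39.5% of all. Gene length was alike, with means of 48.5 kb and 47.6 kb in the reference. Compared with all promoters, only the neighbouring starts had an interval that left out the general value.

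The share of promoters in the set ranged from 2.13% on chromosome 12 (15 of 704, interval 1.2 to 3.49%) to 7.75% on chromosome 1 (96 of 1238, interval 6.33 to 9.39%). It was 7.11% on chromosome 9 and 3.06% on chromosome 5. These were the 2 highest and the 2 lowest values. At the genome rate for the same LLC-NR counts the shares would be 5.74% on chromosome 1 and 5.53% on chromosome 9. They would be 5.31% on chromosome 5 and 6.03% on chromosome 12. Over all genes of a chromosome, the number of H3K4me3 midpoints 10 to 50 kb away from promoters in LLC-R relative to LLC-NR was 1.05 on chromosome 12 and 1.07 on chromosome 5, but 0.921 on chromosome 1 and 0.965 on chromosome 9. H3K9ac, a different library pair, gave 0.939 and 0.928 on chromosomes 12 and 5 and 0.897 and 0.904 on chromosomes 1 and 9. On these 4 chromosomes, picked by their share, the regional level moved with the share of promoters in the set. Chromosome 18, with the highest H3K4me3 ratio of 1.12, had a share of 3.68%, but chromosome 7, at 1.02, had 5.21%. The part of the regional level in the result, DNA copy number included, was not tested.

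Most of the promoters stood alone. Among genes ordered along the chromosomes, 945 had no neighbour in the set, 82 pairs were adjacent and 4 groups held 3 adjacent genes. Of the groups, 2 lay in the histone gene cluster of chromosome 13 and consisted of Hist1h4k, Hist1h2ak and Hist1h2bn and of Hist1h2bf, Hist1h2ad and Hist1h3d. The others were Oprl1, Myt1 and Pcmtd2 on chromosome 2 and Gimap3, Tmem176b and Tmem176a on chromosome 6, named after their values were seen. The promoters of 25 adjacent pairs, with 49 genes, overlapped, so that the same peaks were counted for both genes.

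Within the promoter the loss was spread over its whole length. In the outermost 500 bp upstream the mean fell from 2.14 to 0.955 midpoints, in the 500 bp next to the TSS from 2.12 to 1.03, and from the TSS to 500 bp downstream from 2.20 to 1.26. LLC-R thus retained 44.6%, 48.5% and 57.1% of the LLC-NR midpoints. The difference along the promoter was seen in HCPs, where LLC-R retained 46.4%, 53.8% and 67.0%, and was absent in LCPs, with 41.9%, 37.9% and 40.5%. The longest stretch of a promoter without a midpoint had a median of 339 bp (quartiles 281 and 426) in the sensitive and 618 bp (481 and 823) in the resistant tumor, and its mean in the reference went from 355 to 406 bp.

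Outside the counted region, which the rule itself set off, H3K4me3 fell slightly more than in the reference 10 to 50 kb away. The ratios within 3 kb take in the stretches next to the promoter. From 1 to 3 kb upstream LLC-R held 0.921 times the H3K4me3 midpoints of LLC-NR, against 0.919 in the reference, and from 0.5 to 3 kb downstream 0.933 against 0.930. From 10 to 50 kb away on either side the ratio was 0.970 against 0.993. Inside the promoter, where the rule fixed it, the ratio was 0.502 against 0.899. Just outside, the members had fewer midpoints than the reference in LLC-NR and more in LLC-R. In the 100 bp added at each end the mean rose from 0.50 to 0.75, against 0.677 and 0.662 in the reference. With these 200 bp included, 795 of the 1121 (70.9%) still lost 3 or more, 280 lost 2 and 46 lost 1. Since the set was chosen on counts within these limits, nothing is read from the values next to them. The ratios within 3 kb include these values, so their closeness to the reference is not read either.

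**Figure D2:**
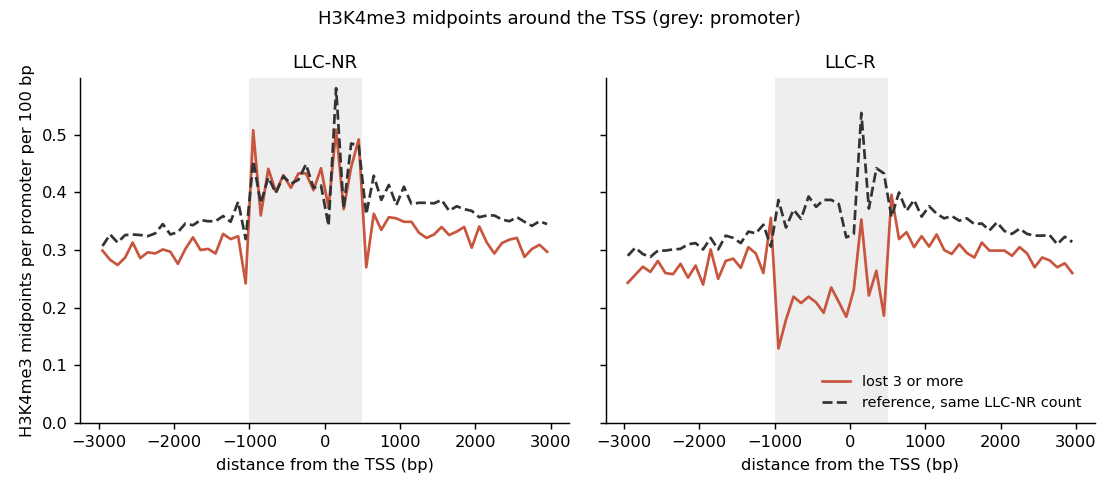
Mean H3K4me3 midpoints per promoter in each 100 bp (y axis) by distance from the TSS in bp (x axis) in LLC-NR (left) and LLC-R (right) for the 1121 promoters (solid) and for reference promoters of the same LLC-NR counts (dashed), with the counted region in grey. In LLC-R the solid line lay below the dashed one inside the grey region and rose above it in the 100 bp next to each end.

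Of the LLC-NR H3K4me3 peaks in the promoters, 2746 (37.9%) were lost, 1397 (19.3%) shifted and 3101 (42.8%) kept. In other promoters with at least 3 peaks, 14.2% were lost, 18.9% shifted and 66.8% kept, so shifted positions were about equally frequent. A loss of 3 in the count did not always mean 3 lost positions: 23 promoters had lost 5 peaks, 119 had lost 4 and 437 had lost 3, but 338 only 2, 168 only 1, and 36 none. On average lost peaks held fewer CpG than kept ones, with wide spreads. In HCPs of the set lost peaks held a mean of 6.15 CpG per 147 bp (SD 6.35, 1194 peaks) and kept peaks 9.20 (SD 6.78, 2117 peaks), and in LCPs 1.11 (SD 1.27, 1004 peaks) and 1.38 (SD 1.54, 518 peaks). In HCPs lost peaks also lay more upstream, at median positions of -383 bp for lost and -142 bp for kept peaks relative to the TSS. Single promoters varied around these averages. The lost peak held fewer CpG than the kept one in Hnrnpm, Parp2 and Olfr376 and more in Hoxa5, Copg and Ano4. It was the nearer one to the TSS in Hoxa5 and Copg and the farther one in Hnrnpm, Parp2, Ano4 and Olfr376.

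In LLC-R most positions that had lost H3K4me3 held a peak of another of the marks. Of the 2746 lost peaks, 55.1% were overlapped by at least 74 bp of an H3K9ac peak in LLC-R (65.6% in LLC-NR), 61.0% by an H3K27me3 peak (51.5%) and 55.9% by an H3K36me3 peak (39.6%). At least 1 of these marks was present in LLC-R at 85.5% of lost peaks, and 399 held none. At kept peaks the share was 94.7%. In other promoters the shares were 86.1% for lost and 93.3% for kept peaks. Lost positions in the set were therefore covered by the other marks about as often as lost positions elsewhere, and less often than kept positions. Peaks of these marks were dense throughout the chromosomes. At the average LLC-R density, a stretch of promoter length would hold 4.55 midpoints of H3K9ac, 5.24 of H3K27me3 and 5.04 of H3K36me3. The share covered at positions in general was not computed, so the 85.5% is not read as marks retained or gained there.

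**Figure D3:**
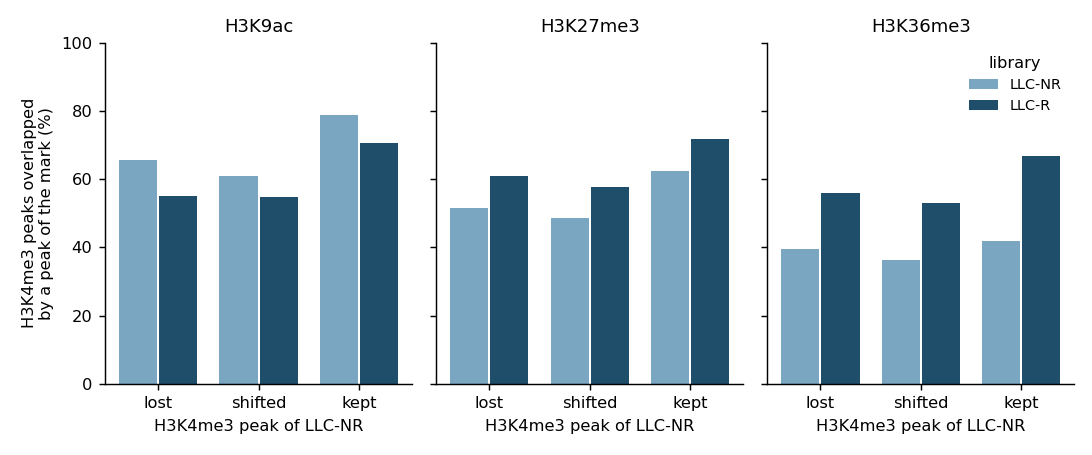
Percentage of LLC-NR H3K4me3 peaks in the 1121 promoters that were overlapped by at least 74 bp of an H3K9ac, H3K27me3 or H3K36me3 peak (y axis) in LLC-NR and LLC-R, for lost, shifted and kept peaks (x axis). Kept peaks had the highest bars in each panel, and H3K9ac bars were lower and H3K27me3 and H3K36me3 bars higher in LLC-R.

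H3K9ac, the mark that usually accompanies H3K4me3, was slightly lower in LLC-R, with a mean change close to that of the reference. The mean went from 5.96 midpoints in LLC-NR to 5.30 in LLC-R, a difference of -0.658 (SD 1.34), against -0.639 in the reference. H3K9ac was lower in LLC-R in 609 promoters (54.3%, interval 51.4 to 57.3%, reference 54.2%, all promoters 50.9%), the same in 310 and higher in 202. A fall of 3 or more occurred in 88 (7.85%, interval 6.34 to 9.58%) against 6.76% of the reference and 6.41% of all promoters, and a rise of 3 or more in 15 (1.34%, interval 0.751 to 2.2%) against 0.679% and 1.08%. By class, a fall of 3 or more occurred in 9.36% of the LCPs (interval 6.49 to 13.0%, reference 5.04%), in 21 of the 210 ICPs (interval 6.3 to 14.9%, reference 4.91%) and in 6.15% of the HCPs (interval 4.32 to 8.45%, reference 7.20%). Large falls of H3K9ac were thus more frequent than in the reference in the promoters of low and intermediate CpG content. The interval of the ICPs included the 6.41% of all promoters. Rises of 3 or more were also more frequent in LCPs (1.75%, interval 0.646 to 3.78%, reference 0.531%). The same held in HCPs (1.58%, interval 0.726 to 2.98%, reference 0.481%), and no ICP had such a rise (reference 0.359%). The promoters that lost 4 or 5 H3K4me3 midpoints were alike, with 54.2% lower in H3K9ac and 54.5% in their reference.

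The H3K9ac level itself lay between those of 2 references of the same CpG class. In LLC-NR the mean of 5.96 (SE 0.0359 over promoters) was below the 6.30 of promoters with the same LLC-NR H3K4me3 count and above the 4.96 of promoters with the same LLC-R count. In LLC-R the mean of 5.30 was likewise between 5.69 and 4.47. The rule took promoters with low LLC-R counts for their LLC-NR count. Any mark that goes with H3K4me3 can therefore lie between these references. The other marks did so as well, H3K36me3 in the promoter in LLC-NR with 3.56 between 3.67 and 2.97. The position of H3K9ac is thus not read as a trait of these promoters. When the reference was also given the same LLC-NR H3K9ac count, a lower H3K9ac in LLC-R was more frequent in the set by 4.45 percentage points (interval 1.48 to 7.40), and by 8.29 (5.32 to 11.2) when the CpG class was held equal as well, so whether H3K9ac followed depends on this choice.

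H3K27me3, the Polycomb mark, was higher in LLC-R, with a mean change close to that of the reference. Its mean went from 4.86 to 5.79 midpoints (difference 0.933, SD 1.42, reference 0.966). It was higher in LLC-R in 694 promoters (61.9%, interval 59.0 to 64.8%, reference 61.3%, all promoters 58.6%) and lower in 166 (14.8%). A rise of 3 or more occurred in 136 (12.1%, interval 10.3 to 14.2%) against 14.9% of the reference and 13.2% of all promoters. The interval left out the share of the reference but included that of all promoters. A fall of 3 or more occurred in 9 (0.803%) against 0.60% of the reference and 0.537% of all promoters. Lower H3K9ac together with higher H3K27me3 was found in 382 promoters (34.1%, interval 31.3 to 36.9%, reference 33.0%, all promoters 30.6%). Against promoters that also had the same LLC-NR H3K27me3 count, a higher H3K27me3 in LLC-R was more frequent by 3.10 percentage points (interval 0.181 to 5.95), and by 0.466 (-2.45 to 3.32) at the same CpG class as well. The LLC-R library held more H3K27me3 peaks in total, 9101721 against 7245090.

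H3K36me3, the mark of transcribed gene bodies, was counted from 0.5 to 3 kb downstream of the TSS. Its mean went from 7.35 to 9.54 midpoints (difference 2.18, SD 1.90, reference 2.16), with 906 promoters higher (80.8%) and 86 lower (7.67%, interval 6.18 to 9.39%, reference 7.55%, all promoters 6.41%). A rise of 3 or more occurred in 487 (43.4%) against 43.8% of all promoters and a fall of 3 or more in 2 (0.178%) against 0.322%. Against promoters that also had the same LLC-NR count of the mark, a lower H3K36me3 was more frequent by 2.24 percentage points (interval 0.749 to 3.96), and by 1.91 (0.415 to 3.62) at the same CpG class as well. In the promoter itself the mean went from 3.56 to 5.29 (difference 1.73, reference 1.92), with a rise of 3 or more in 336 (30.0%, interval 27.3 to 32.7%) against 34.7% of the reference and 31.8% of all promoters. A fall of 3 or more there occurred in 4 (0.357%, interval 0.0973 to 0.911%) against 0.0942% and 0.126%. The H3K36me3 library of LLC-R also held more peaks, 8747519 against 6432447. H3K9ac and H3K27me3 in the promoter and H3K36me3 downstream were all not lower in LLC-R in 406 promoters (36.2%, interval 33.4 to 39.1%), against 35.8% of the reference and 39.3% of all promoters.

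**Figure D4:**
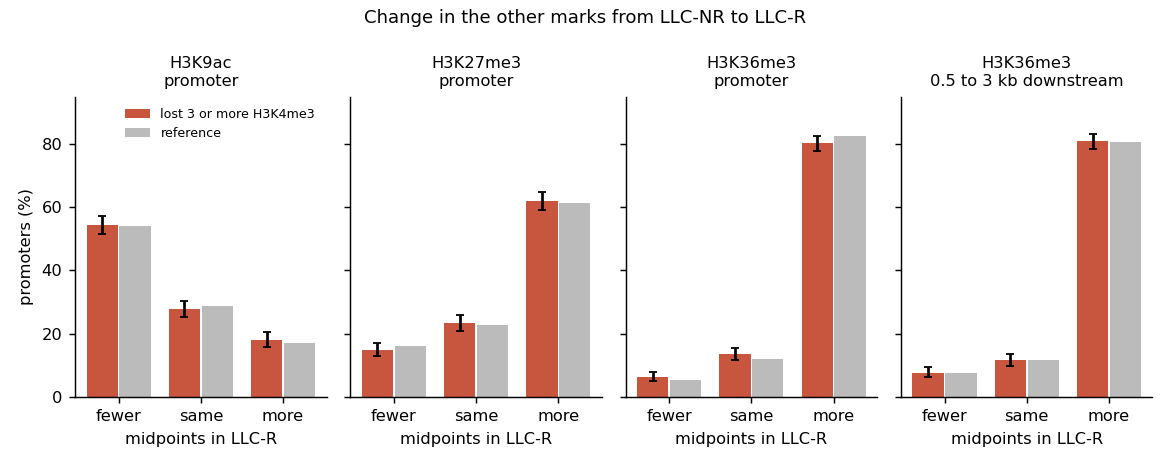
Percentage of promoters (y axis) with fewer, the same number or more midpoints in LLC-R than in LLC-NR (x axis) for H3K9ac, H3K27me3 and H3K36me3, in the 1121 promoters (red, with exact 95% intervals) and in reference promoters of the same LLC-NR H3K4me3 counts (grey). For H3K9ac fewer, the bars stand at 54.3% and 54.2%, and for H3K27me3 more at 61.9% and 61.3%.

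The 20 named genes with the largest fall all lost 5 midpoints. Hnrnpm, a pre-mRNA splicing protein gene, went from 9 H3K4me3 midpoints to 4, with H3K9ac going from 7 to 5 and H3K27me3 from 3 to 6. Parp2 went from 8 to 3 in H3K4me3, from 7 to 5 in H3K9ac and from 3 to 5 in H3K27me3. Hoxa5 also went from 8 to 3, with H3K9ac from 6 to 5. These HCPs combined lower H3K9ac with higher H3K27me3.

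Other promoters kept their acetylation. Copg went from 7 to 2 in H3K4me3 while H3K9ac stayed at 6, and Kbtbd12, a kelch repeat protein gene, did the same. Ano4 went from 8 to 3 while H3K9ac went from 5 to 6 and H3K27me3 was 8 in both. Ms4a5, of the CD20-like membrane protein family, went from 6 to 1 with H3K9ac at 6 and 7. At these promoters H3K9ac did not go down with H3K4me3.

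Immune effector genes were among the 20. Il17a, the gene of the cytokine interleukin 17A, went from 6 to 1 in H3K4me3, from 8 to 5 in H3K9ac and from 6 to 8 in H3K27me3. Fasl, the death receptor ligand of cytotoxic lymphocytes, went from 7 to 2 in H3K4me3, from 8 to 7 in H3K9ac and from 7 to 8 in H3K27me3. Fewer host leukocytes and less mark per cell cannot be told apart in tissue.

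The remaining genes ranged from 6 or 7 midpoints in LLC-NR to 1 or 2 in LLC-R, apart from Olfr376, which went from 8 to 3. They were Dnm3, of the dynamins that cut vesicles from membranes, Fez1, an adaptor in axonal transport, H47, a selenoprotein gene of the endoplasmic reticulum, Nat1, an arylamine acetyltransferase, Sipa1l3, of a family of Rap GTPase activators, Tgm3, a transglutaminase of the epidermis, Ugt3a2, a glycosyltransferase, Evx1, a homeobox gene next to the Hoxa cluster, Gng3, a G protein gamma subunit, and Mfi2, melanotransferrin. Over all 20, 8 were HCPs, 5 ICPs and 7 LCPs on 13 chromosomes. H3K9ac was lower in LLC-R in 16, equal in 2 and higher in 2, with changes from -3 to 1, and H3K27me3 was lower in 3, equal in 4 and higher in 13. Over all promoters H3K9ac was lower in 50.9% and H3K27me3 higher in 58.6%. The 20 were taken by the naming rule from 32 promoters that all lost 5. Among the 216 promoters that lost 4 or 5, H3K9ac was lower in 54.2% (reference 54.5%) and H3K27me3 higher in 62.0% (reference 61.5%). The counts over the 20 are therefore not read as a trait of the largest losses.

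Gene groups were counted next to the 5.23% of all promoters in the set and next to the rate at which promoters of the same LLC-NR count and CpG class were in it. The largest excess over that rate was in the replication-dependent histones, which package newly replicated DNA and are transcribed in S phase. Of 67 histone promoters, 11 were in the set (16.4%, interval 8.49 to 27.5%), against 2.68% at the same count and class, while the median change was -1 midpoint over the 67 and 0 over all promoters. Hist1h3d went from 7 to 3, and Hist1h2ad, Hist1h2ak, Hist1h2bf and Hist1h2bn each went from 6 to 2. H3K9ac there was 4 to 7 in LLC-NR and 4 to 5 in LLC-R, and H3K27me3 was at 0 or 1 in LLC-NR and at 1 to 3 in LLC-R. Hist1h4k went from 8 to 5. Promoters in this cluster overlap and resemble each other. Those of Hist1h2ad, Hist1h2bf and Hist1h3d overlapped, as did those of Hist1h2ak and Hist1h2bn, so the same peaks were counted for several genes. The interval treats the 67 promoters as independent and may therefore be too narrow. Reads that fit several copies may have been left out of the uniquely mapped reads, and the values of single copies are uncertain.

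Chemosensory receptor genes, which are silent outside sensory neurons and start from few midpoints, were near the general rate of 5.23% but above the lower rate of promoters of the same count and class. Of 1081 olfactory receptor promoters, 67 were in the set (6.2%, interval 4.84 to 7.80%), against 3.46% at the same count and class. Of 322 vomeronasal receptor promoters, 22 were in the set (6.83%, 4.33 to 10.2%), against 2.33%. Both intervals included 5.23%, and the median change was 0 in both groups. Olfr527 and Vmn1r183 each went from 5 midpoints to 0, while H3K9ac stayed at 5 in Olfr527 and was 5 and 6 in Vmn1r183, and Vmn2r23 and Vmn2r96 went from 4 to 0. These are multigene families of similar copies, so the same uncertainty about unique reads applies.

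Genes of immune cells were few in number. Of 57 chemokine and chemokine receptor promoters, 5 were in the set (8.77%, interval 2.91 to 19.3%, 7.65% at the same count and class). They were Cxcl9 (8 to 4), a T cell attractant, Ccl17 (7 to 3), Ccl8 (6 to 2) and Ccl7 (6 to 3), and Xcr1 (5 to 1), a receptor of cross-presenting dendritic cells. In Ccl17 H3K9ac went from 6 to 8 and H3K27me3 from 4 to 8. Of 15 leukocyte markers, Cd3d (7 to 3), Ptprc (7 to 4) and S100a8 (7 to 4) were in the set (20%, interval 4.33 to 48.1%, 14.7% at the same count and class). No endothelial or fibroblast and pericyte marker of 12 each was in the set, with exact upper limits of 26.5%. Interleukins and their receptors gave 4 of 80, Il17a, Il1a, Il6st and Il23a. The part of changes in host cell number was not tested.

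Housekeeping groups lay below the rate of promoters of the same count and class, with intervals that included it. Cytosolic ribosomal proteins gave 4 of 81 (4.94%, against 6.33%), Rpl19 (7 to 3), and Rpl14, Rpl35a and Rps27l (each 8 to 5). Mitochondrial ribosomal proteins gave 2 of 76 (Mrpl1 and Mrpl36), respiratory chain subunits 3 of 90 (among them Ndufa13 and Ndufa10) and proteasome subunits 3 of 49 (Psmb7, Psmd12 and Psmd9). The median change of all promoters of these groups was -1 midpoint, or -0.5 in the respiratory chain. Zinc finger proteins gave 19 of 359 (5.29%, against 6.46%), of which Zfp617 and Zfp882 share nearly the same promoter and the same counts of 8 and 4.

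Regulators of growth and of the vasculature had intervals that included the same rate. Cyclins and their kinases gave 3 of 43, Ccnd3 (8 to 5), the D-type cyclin of G1 phase, Cdk7 (8 to 5), a kinase of transcription initiation, and Cdkn2b (7 to 4), an inhibitor of Cdk4 and Cdk6. VEGF, angiopoietin and Notch genes gave 2 of 32 (6.25%, against 5.38%), Nrp1 (8 to 5), a co-receptor of VEGF, and Pdgfc (8 to 5), a growth factor of mesenchymal cells. H3K9ac was 7 and 6 in Nrp1 and 7 in both lines in Pdgfc. Among the complexes that write and erase H3K4 methylation, 1 of 16 was in the set, Wdr82 (7 to 4), which recruits Setd1 methyltransferases, and H3K9ac there went from 7 to 5 and H3K27me3 from 8 to 5.

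The intervals of the remaining groups included it as well. Solute carriers gave 21 of 324 (6.48%), among them Slc16a5 and Slc5a4b, each from 6 to 1, ion channels 6 of 137, keratins and keratin-associated proteins 4 of 97, collagens 2 of 41 (Col5a2 and Col15a1), integrins and laminins 2 of 42 (Itgb5 and Itgax), DNA replication genes 1 of 36 (Orc5) and Hox genes 1 of 40 (Hoxa5). Of 113 genes that the study lists as downregulated in LLC-R, 5 were in the set (4.42%, interval 1.45 to 10%, against 6.98% at the same count and class), among them Ruvbl1 (7 to 3), Ccnd3, Fgf1 (7 to 4) and Ifnar1 (7 to 4). The paper gives that list in a table associating expression with histone modifications. It cites the table for lower active marks in down-regulated genes, with occupancy taken as normalized tag counts and not as called positions. The list is therefore not independent of these libraries and is no evidence of a direction.

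**Figure D5:**
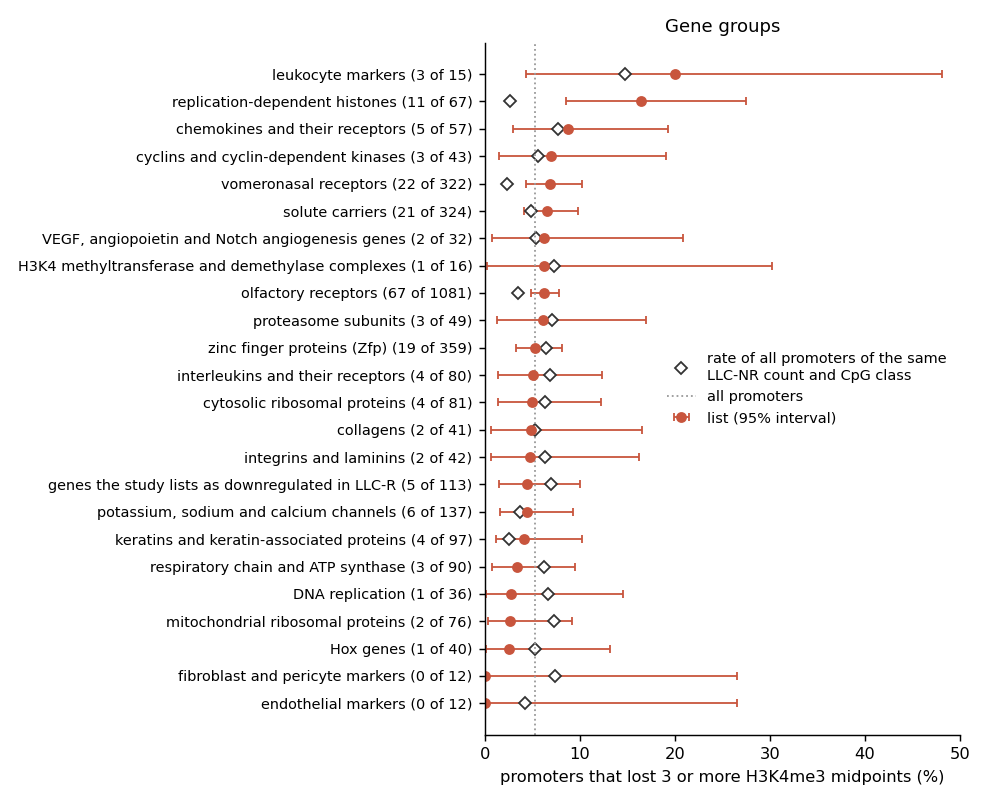
Percentage of promoters that lost 3 or more H3K4me3 midpoints (x axis) in each gene group (y axis, with counts), with exact 95% intervals, beside the rate of promoters of the same LLC-NR count and CpG class (diamonds) and the 5.23% of all promoters (dotted line). The intervals of the replication-dependent histones, olfactory receptors and vomeronasal receptors lay wholly above their diamonds. The intervals treat promoters as independent, although some histone promoters overlap.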

How the data were processed

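The authors aligned the reads to the mouse genome mm9 with Bowtie 0.12.7, allowing 2 mismatches and keeping uniquely mapped reads, and called nucleosome-sized peaks with GeneTrack, whose settings are not given in the sources used here. The deposited files of the 8 libraries give the position of each peak, with no height, strand or score. Peaks were therefore counted by their midpoints, and the precision is that of small whole numbers.

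Promoters and CpG classes were taken from GENCODE vM1 and the mm9 sequence. HCPs held a 500 bp interval whose G+C reached 55% and whose ratio of observed to expected CpG reached 0.6, and LCPs held none whose ratio reached 0.4. Reference values were means over the other promoters weighted to the LLC-NR H3K4me3 counts of the set. Shares have exact (Clopper-Pearson) 95% intervals. Counting, weighting and classes were checked on invented promoters with known answers. Intervals came from SciPy 1.17.1, tables from pandas 2.3.3 with NumPy 2.4.6, and figures from Matplotlib 3.10.9, under Python 3.11.15. 7 midpoints lay beyond a chromosome end.

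The set and the gene lists were chosen with earlier results of these data known. Genes named are the 20 with the largest fall that have a symbol other than a predicted name, ties going to the higher LLC-NR count and then the alphabet, and up to 6 per gene list in the same order, some of which are not reported here. The sequences shown follow this order, and the kept peaks were added to them after the data were seen. Alternatives concerned the region, the way a peak counts, the TSS, scaling, the size of the loss, neighbouring starts, chromosome 16 and the reference.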

Additional observations from a re-analysis of the deposited data

How the results depend on the processing

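The number of promoters depended on the rule. It was 1820 with a region reaching 1 kb downstream, 3941 for a loss of 2 or more and 216 for 4 or more. Scaling LLC-R by uniquely mapped reads left 223 and by numbers of peaks 232, because any factor above 1 puts a loss of exactly 3 short of the limit unless LLC-R is at 0. The other 4 alternatives gave 1014 to 1398. The share of HCPs had a value below the reference under every alternative: by -21.5 percentage points with the longer region, -33.9 and -32.5 with the scalings, -19.5 and -34.9 for losses of 2 and 4 or more, -1.52 (interval -4.49 to 1.45) against promoters of the same sum over both lines, and -24.5 to -29.9 in the other 5. For H3K9ac the difference from the reference in the share of promoters lower in LLC-R was 0.164 points, 4.45 with the same count of the mark, 8.29 with the same CpG class as well (chosen after seeing the data), and -1.04 to 2.23 in the other 12. For H3K36me3 downstream it was 0.118 points, 2.24 (interval 0.749 to 3.96) and 1.91 (0.415 to 3.62) with the same references, and -0.304 to 1.48 otherwise. For H3K27me3 higher in LLC-R it was 0.617, and -1.07 to 3.10 over 14 alternatives, the highest (interval 0.181 to 5.95) with the same count of the mark. No paired analysis was possible because each line had 1 library per mark. With no replicate, counts of at most 9 and no peak heights, a promoter named singly has no error of its own.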
